A study of Mus musculus with 22 samples.

Results

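The genes described here are the cytosolic ribosomal protein genes of mouse cortex. They were chosen by a rule that uses names only and that was set with earlier results of these data known. It takes symbols that start with Rpl or Rps and a digit, together with Rplp0, Rplp1, Rplp2 and Rpsa. The Rps6k kinases and any pseudogene symbol (one that contains -ps) were left out. The rule found 81 of the 15705 genes of the table of 6-month mice and 82 of the 15192 genes of the table of 12-month mice. In all 80 genes were in both tables, Rps23 was only in the first, and Rpl9 and Rpl36al only in the second. Of the 83 genes, 43 encode proteins of the large subunit, 31 proteins of the small subunit and 3 the stalk proteins (Rplp0, Rplp1 and Rplp2). A further 5 are paralogs with a ribosomal name (Rpl3l, Rpl7l1, Rpl22l1, Rpl36al and Rps27l). Rps19bp1 matches the name rule but encodes a protein that binds RPS19 and is no part of the ribosome. Rps27a encodes ubiquitin fused to a small-subunit protein.

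Cytosolic ribosomes hold a small and a large subunit, each built of ribosomal RNA and of proteins, most of which are needed in equal amounts. Ribosomal protein genes are short, are transcribed strongly in almost every cell, and many of their introns carry small nucleolar RNAs (snoRNAs) that are cut out of the spliced intron and guide the modification of ribosomal RNA. In neurons ribosomes also work in dendrites and axons, and the synthesis of ribosomal proteins is tied to mTOR signalling. Introns are removed by the spliceosome, whose U1 small nuclear ribonucleoprotein (snRNP) pairs with the 5′ splice site at the start of an intron.

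The samples were cortex, and poly(A) RNA was sequenced. At 6 months there were 12 libraries, 3 of each group, all littermates of crosses of N40K (+/-) with 5xFAD (+/-) mice: wild type (WT), N40K, 5xFAD, and dTg with both. The N40K transgene encodes the N-terminal part of the U1 snRNP protein U1-70K. 5xFAD mice carry transgenes that make them form amyloid deposits. At 12 months there were 4 WT libraries and 6 of Tau P301S littermates from a cross of Tau P301S (+/-) with WT mice; the transgene encodes a mutant human tau. The labels do not name the promoters that drive the transgenes or say that each library came from 1 animal. The p-values therefore set a group difference against the spread between these libraries, which need not be that between animals.

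The measure is the Sd score of a gene in a library, a linear ratio deposited to 3 decimals. The name is read here as splicing deficiency, so that higher scores mean more unspliced signal relative to spliced signal. No formula and no depth is given in the sources used here. Hence a single score carries no interval. A score says nothing of how much of a transcript was present. Ribosomal protein genes have many processed pseudogenes of near-identical sequence, and how reads shared with them were counted is not known, so each level below carries that uncertainty. Of the cortical cell markers, those of excitatory neurons (4 of 4), interneurons (3 of 3) and astrocytes (4 of 4) were in both tables. For oligodendrocytes and for microglia 3 of 4 were present at 6 months and 4 of 4 at 12 months. Endothelial cells had 2 of 3 in both. The scores do not show how strongly these markers were expressed.

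The scores of the ribosomal protein genes spread widely. In 6-month WT mice the mean score ran from 0.00133 in Rps29, a small zinc-binding protein of the small subunit, to 4.787 in Rpl41, the smallest protein of the large subunit, a 3590-fold span. The median was 0.041, against 0.0297 over all genes, and the middle 50% of the members lay between 0.0117 and 0.12 (0.01 and 0.0913 over all genes). A score above 0.1 was found in 28 members (34.6%), against 23.3% of all genes, and a score above 1 in 3. Large-subunit genes had a median of 0.0438 (42 genes) and small-subunit genes one of 0.038 (31 genes).

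Rpl41 scored 4.755, 4.791 and 4.814 in the 3 WT libraries, 5.046, 4.848 and 4.803 in N40K, 4.732, 4.641 and 4.73 in 5xFAD, and 4.816, 4.889 and 4.996 in dTg. The lowest of the 12 libraries was thus at 4.641, and N40K replicate 1 was the highest. Next came Rpl10a, a protein of the mobile L1 stalk, at 1.05 ± 0.0273 in WT, and Rps21 at 1.03 ± 0.00907 (SD, n = 3 each). Rpl12, which sits at the base of the stalk beside Rplp0, was at 0.763 ± 0.0162 (SD, n = 3). These levels do not overlap between WT libraries except for Rpl10a and Rps21, whose ranges of 1.019 to 1.073 and 1.022 to 1.04 do. At the other end, Rps29 had 0.001, 0.001 and 0.002 in WT, and Rpl11 had 0.002 in all 3. Rpl26 (0.00267), the stalk protein Rplp1 (0.003), Rps14, Rps3a and Rpl24 (0.00433 each) followed. Such low scores sit within a few steps of the last decimal, so their order is not resolved.

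The 5′ splice sites of introns in the members with the highest scores show what the U1 snRNP meets in them. Each line gives the last 10 bases of the exon and the first 15 of the intron in DNA letters, 5′ to 3′. Capitals mark the 9 bases that face U1, 3 of the exon and 6 of the intron. They were read by matching letters between spliced and intron-retaining transcripts of GENCODE M21, and introns are numbered in the gene's reference transcript. Only sites that an intron-retaining transcript shows could be read.
Rpl41 intron 2: gagagcgAAGGTGAGCggctcttag
Rpl10a intron 1: cagccatGAGGTAAGTtgttatcgt
Rps21 intron 2: cgcggaaATGGTGAGCatctgcggg
Rps21 intron 5: ttgtctcAAAGTAAGTgtgggggac
Rpl12 intron 1: gtcaaagTCGGTGCGTgccctcgcc
Rpl12 intron 5: gaactttCTGGTAAGAgcacgctat
Rpl13a intron 4: actgtgcGAGGTGAGTtggtgatgt
Rps24 intron 4: tggcaaaAAGGTATGGttcatggct
Rps16 intron 3: caaatttATGGTAAGTctcaggatc
The last 3 genes are the top scorers of the 12-month table that have such a site. Compared with the consensus, CAG in the exon and GTAAGT in the intron, the sites of Rpl41 and Rps24 match at 6 of 9 bases, Rpl10a at 8, Rps21 at 5 and 7, Rpl12 at 5 and 7, Rpl13a at 7 and Rps16 at 7. These are single sites, and other readable introns of the same genes can match less well: introns 2, 3 and 4 of Rpl10a match at 6 bases each, intron 3 of Rps24 and of Rpl13a at 5, and introns 4 and 6 of Rpl12 at 5 and 6. Over all 88 sites read in 41 members the median was 6 matches, with a range of 4 to 8. It was also 6 over the 6859 sites read in 3612 genes, members included. The intron start GTAAGT occurred in 22.7% of the members' sites and in 9.59% of all sites, and GTGAGT in 21.6% and 15.6%, on the transcribed strand only. A match is a description of letters and says nothing of how well a site is used.

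Most members have a compact structure, which the naming rule did not use. All 83 matched a GENCODE gene, and Rpl36al has no intron in its reference transcript. In the other 82 the introns summed to a median of 2228 bases, from 445 to 30111, against a median of 15090 bases over 20407 protein-coding genes with introns. The entries matched to Rpl24 and Rps14, with 30111 and 30088 bases, were the 2 above that median. The entry matched to Rpl24 has 10 introns and 4920 exon bases, and it may be that of another gene. In 29 members (34.9%) the annotation places at least 1 of 57 snoRNA genes inside the gene, against 1.31% of those protein-coding genes. An intron-retaining transcript is annotated for 65 members (78.3%) and for 44.7% of the protein-coding genes. The letters of a terminal oligopyrimidine message, a C followed by at least 4 pyrimidines, were looked for at the annotated start. They stood there in 13 of 63 members with a RefSeq promoter (GRCm38.p6, 20.6%) and in 3.01% of 27025 genes. Only the annotated base was read as the start, so a tract that begins a few bases away was not counted. These shares therefore do not tell how many genes lack such a tract.

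At 6 months the 29 snoRNA hosts had a median score of 0.11, from 0.00433 to 0.763, and the 52 other members with introns one of 0.022, from 0.00133 to 4.787. At 12 months the medians were 0.0208 (29 hosts) and 0.0199 (52 others). The medians lay apart at 6 months and close together at 12 months, with wide overlap in both. As a description across 81 genes of the same libraries, Spearman's rho between WT score and summed intron length was -0.20 at 6 months and -0.15 at 12 months. With the number of introns it was 0.35 and 0.14.

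**Figure D1:**
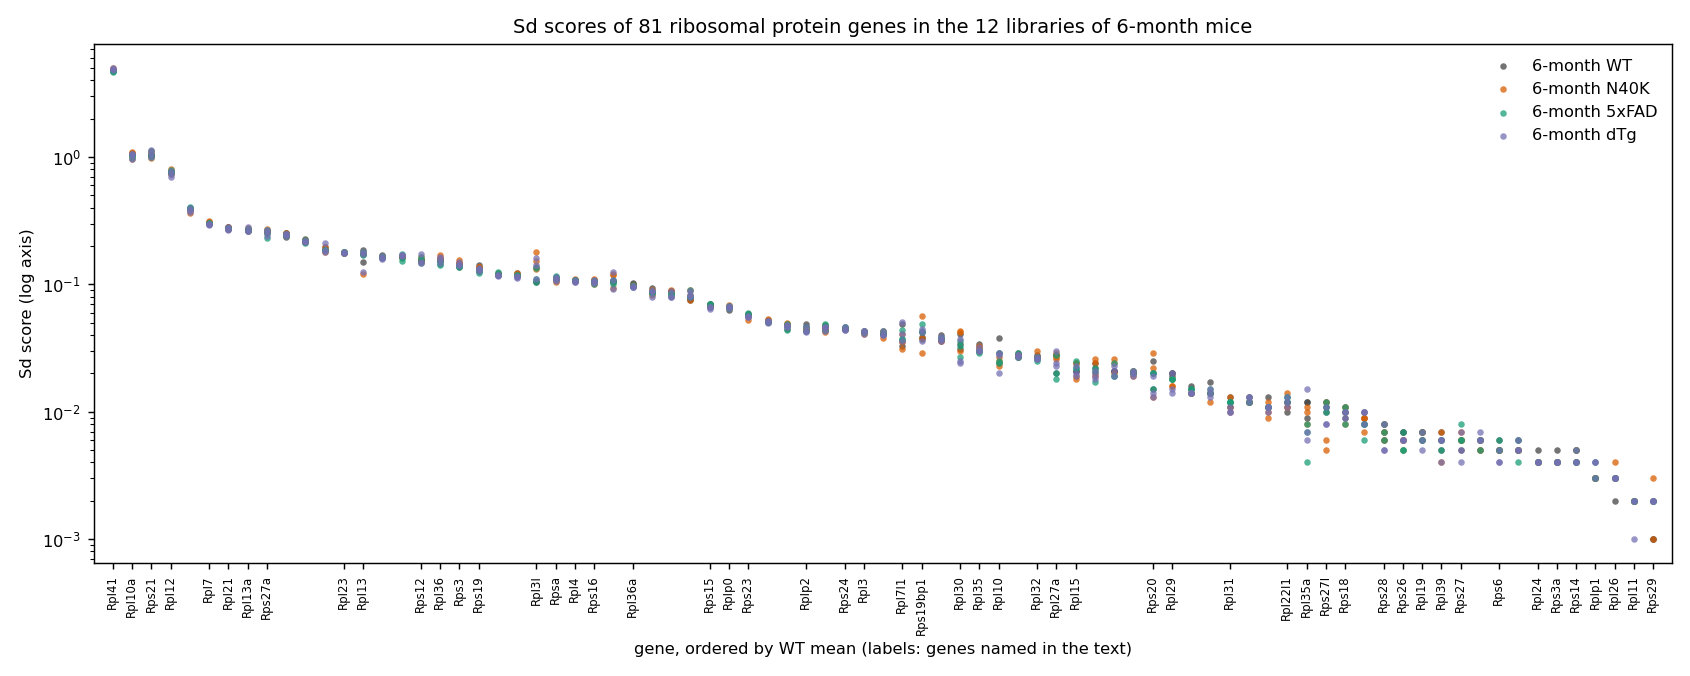
Sd score (log axis) of each of the 81 genes, ordered along the horizontal axis by the WT mean, in the 12 libraries of 6-month mice; each point is 1 library, coloured by group; genes named in the text are labelled. The points of a gene mostly lie on top of each other while genes differ by up to 3590-fold, and the spread widens in Rps20, Rpl35a and Rps27l.

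The score of a ribosomal protein gene varied little between the 6-month libraries. The SD over all 12 libraries was 4.78% of the mean in the median member, against 14.8% over all genes. Within groups, the residual SD on the log2 scale had a median of 0.0645 in members and 0.162 over all genes, and 67 of 81 members lay below the latter. Rpl23, a large-subunit protein at the interface of both subunits, was the steadiest, with scores from 0.176 to 0.18 in all 12 libraries (residual SD 0.00866). Rpl4 (0.105 to 0.11) and Rpl7 (0.293 to 0.313) followed. The widest were Rpl35a (0.004 to 0.015, residual SD 0.378), Rps20 (0.013 to 0.029, 0.356) and the paralog Rps27l (0.005 to 0.012, 0.298). All 3 have low scores, where a step of 0.001 is a larger part of the value. Other members with low scores were steady, such as Rps25 (residual SD 0.0498) and Rps15a (0.0533), or wide, such as Rps29 (0.22). The part of rounding in the spread was not tested. Mitochondrial ribosomal protein genes, which build the separate ribosome of mitochondria, had a median WT score of 0.0317 (73 genes) and varied more, by 12.3% of the mean in the median gene.

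The N40K comparison asks whether the U1-70K fragment moved the scores. No member passed the test in N40K minus WT (limma on log2 of score plus 0.002, adjusted over all genes by Benjamini-Hochberg, threshold 0.05), where 0.178% of all genes did. Averaged over 5xFAD status, 6 N40K carriers against 6 other libraries, no member passed either, where 11.7% of all genes did. The smallest adjusted p among members was 0.124. At an unadjusted p under 0.05 there were 5 members in the averaged comparison (29.1% of all genes) and 1 in N40K minus WT (18.9% of all genes).

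In the averaged N40K comparison the median member differed by -0.01 on the log2 scale and the median gene by 0.09. Of the 81 members 31 lay above 0 (38.3%) and 50 below, and of all genes 72.0% lay above 0. The 95% interval of 63 members (77.8%) stayed within a 1.2-fold change either way, as it did for 31.7% of all genes. The interval of 41 members (50.6%) lay wholly below the median change of all genes, and none lay above it. Over all genes those shares were 13.7% and 12.7%. The members' intervals were also narrower, with a median half-width of 0.0904 against 0.202 over all genes (log2). These shares therefore do not reflect the size of the change alone. In N40K minus WT the medians were -0.0039 for members and 0.10 for all genes. The library medians showed the same difference. The median over all genes was highest in N40K replicate 1 (0.036) and dTg replicate 2 (0.035), the other 10 lay from 0.029 to 0.033, and the median of the members was 0.043 and 0.042 in those libraries and 0.038 to 0.044 in the rest.

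The member with the smallest p was Rpl3l, the paralog of Rpl3 that is known from heart and skeletal muscle. It scored 0.107, 0.137 and 0.104 in WT, 0.111, 0.134 and 0.104 in 5xFAD, 0.18, 0.152 and 0.132 in N40K, and 0.11, 0.142 and 0.16 in dTg. The carriers and the others overlapped, and the averaged difference was 0.32 ± 0.12 (SE, log2; adjusted p = 0.124). Rpl29, a large-subunit protein, scored 0.02, 0.019 and 0.02 in WT, 0.018 in all 3 5xFAD libraries, 0.016, 0.018 and 0.016 in N40K, and 0.015, 0.014 and 0.02 in dTg. All N40K libraries lay below WT and dTg replicate 3 lay among WT, and the averaged difference was -0.18 ± 0.07 (SE, log2; adjusted p = 0.143). Without dTg replicate 3 Rpl29 passed, at -0.25 (adjusted p = 0.0154), and it was then the only member that did.

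Rps6, the protein of the small subunit that S6 kinases phosphorylate, scored 0.005, 0.005 and 0.006 in WT, 0.006, 0.005 and 0.005 in 5xFAD, 0.005 in all 3 N40K libraries, and 0.004, 0.004 and 0.005 in dTg. The groups overlapped and the whole difference is 1 or 2 steps of the last decimal, at -0.14 ± 0.06 (SE, log2; adjusted p = 0.151). It passed when every library was first centred on its median (-0.27, adjusted p = 0.0351). Rps27l, a paralog of Rps27 known as a p53 target, had the lowest value among members, -0.37 (adjusted p = 0.163). It scored 0.01, 0.011 and 0.012 in WT and 0.005, 0.006 and 0.012 in N40K. N40K replicate 3 lay with WT, and without that library Rps27l passed (-0.52, adjusted p = 0.0191). In N40K minus WT the groups did not overlap in 2 members (19.4% of all genes), Rpl29 (-0.22) and Rps3 (0.07), which lines the entry of the mRNA channel. In the averaged comparison no member separated the 6 carriers from the 6 others (5.51% of all genes).

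Other genes of ribosome production, from lists also chosen with earlier results known, gave some calls in the averaged N40K comparison, in which 11.7% of all genes passed. Among 73 mitochondrial ribosomal protein genes 4 rose and 1 fell. Mrpl3 rose from 0.0408 ± 0.00407 to 0.0587 ± 0.00745 (SD, n = 6 each; 1.41-fold, limma adjusted p = 0.0128), and Mrpl1 (1.36-fold), Mrps6 (1.73-fold) and Mrps21 (1.26-fold) rose as well. Mrps33 fell to 0.758-fold (adjusted p = 0.0102). Among 27 ribosome biogenesis factors 3 rose and 2 fell: Polr1b, a subunit of RNA polymerase I, rose 1.33-fold, Bysl 1.45-fold and Bop1 1.15-fold, while Gar1 (0.859-fold) and the nucleolar protein nucleolin, encoded by Ncl (0.924-fold), fell. Of 20 translation factors and other genes with oligopyrimidine messages only Nap1l1, a histone chaperone, rose (by 0.26 on the log2 scale, adjusted p = 0.0483), and of 5 non-coding snoRNA host genes only Snhg12 rose (1.10-fold, adjusted p = 0.0318). None of these genes passed in the other 8 comparisons.

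**Figure D2:**
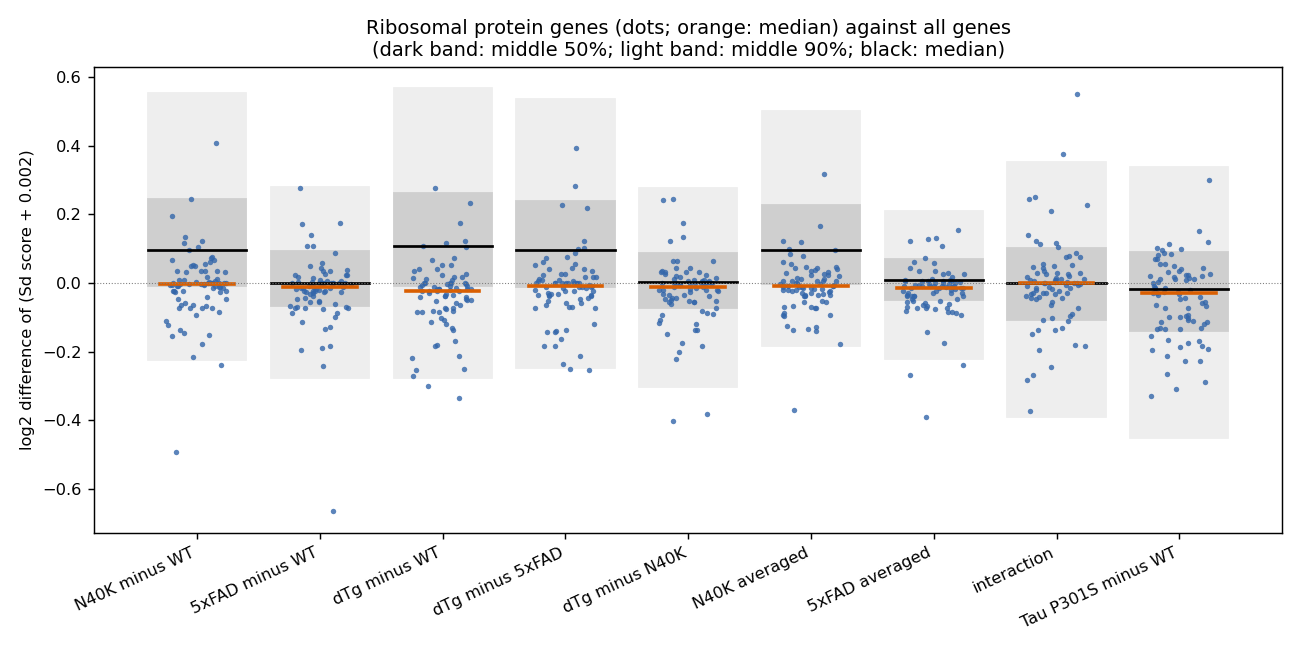
Log2 difference of score plus 0.002 for each ribosomal protein gene (dots, with the median in orange) in the 9 comparisons, over bands that hold the middle 50% and 90% of all genes and their median (black). In the comparisons of N40K carriers with others the black median lies near 0.1 and the orange one at or below 0; the comparisons share libraries.

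The comparisons of 5xFAD and dTg mice share the WT, 5xFAD and N40K libraries with those above, so their values stand side by side and are not independent. No member passed in 5xFAD minus WT (0.0191% of all genes), in dTg minus WT (1.57%), in dTg minus 5xFAD (0.312%) or in dTg minus N40K (0.0191%). None passed for 5xFAD averaged over N40K status (0.0446%) or for the interaction of both transgenes (0.0191%). At an unadjusted p under 0.05 there were 1 (4.39% of all genes), 2 (22.5%), 2 (18.0%), 0 (5.14%), 0 (6.17%) and 0 (2.87%) members in the order given. The median member differed by -0.01 in 5xFAD minus WT (all genes 0) and by -0.02 in dTg minus WT (all genes 0.11). It differed by -0.01 in dTg minus 5xFAD (all genes 0.10), by -0.01 in dTg minus N40K (all genes 0.0015), by -0.02 for 5xFAD averaged (all genes 0.0081) and by -0.00013 for the interaction (all genes 0).

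In 5xFAD minus WT the groups did not overlap in 5 members (6.16% of all genes), all lower in 5xFAD. The furthest was Rpl35a, a large-subunit protein mutated in some patients with Diamond-Blackfan anaemia, with 0.012, 0.012 and 0.009 in WT and 0.008, 0.007 and 0.004 in 5xFAD. Its difference was -0.67 ± 0.29 (SE, log2; adjusted p = 1). N40K (0.011, 0.01 and 0.008) and dTg (0.007, 0.015 and 0.006) overlapped with both groups. The others were Rpl29 (-0.12), Rpl36 (-0.09), Rpl41 (-0.03) and Rpl7 (-0.02). Rps26 (-0.19), a small-subunit protein of the same disease, was also among the members of smallest p.

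In dTg minus WT the groups did not overlap in 5 members (21.8% of all genes). Of these 4 were lower, among them Rps15 (-0.08), Rpl36a (-0.06) and Rpl7 (-0.04), and Rpl41 (0.03) was higher. Rpl7 scored 0.303, 0.303 and 0.307 in WT and 0.296, 0.293 and 0.298 in dTg, a small gap between tight groups. The smallest p belonged to Rps6 (-0.21 ± 0.08, SE; adjusted p = 0.171), then to Rpl29 (-0.25 ± 0.10, SE; adjusted p = 0.189) and Rpl31 (-0.18). Without dTg replicate 3 Rpl29 passed here as well (-0.39, adjusted p = 0.0283).

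Between the transgenic groups, dTg and 5xFAD did not overlap in 3 members (16.7% of all genes), Rpl31 (-0.18), Rps23 (-0.07) and Rpl41 (0.06). Rps6 (-0.21) had the smallest p in that comparison, and Rpl31 was among those that followed. dTg and N40K did not overlap in 2 members (5.51% of all genes), Rps19 (-0.06) and Rpl7 (-0.04). Rpl30, a large-subunit protein whose yeast counterpart binds its own transcript, had the smallest p there: 0.042, 0.03 and 0.043 in N40K against 0.024, 0.037 and 0.025 in dTg. These groups overlapped through N40K replicate 2 and dTg replicate 2, and the difference was -0.40 ± 0.20 (SE, log2; adjusted p = 0.973). For 5xFAD averaged over N40K status, where no member separated the groups (0.388% of all genes), Rplp1 (0.13), Rpl32 (-0.07) and Rps19 (-0.07) had the smallest p. For the interaction Rps27 (-0.37) and Rps26 (0.25) were among them, each with an adjusted p of 1.

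In 2 of the 12 libraries, N40K replicate 1 and dTg replicate 3, the large-subunit gene Rpl13, which hosts 1 annotated snoRNA gene, was low, a pattern chosen after the values were seen. Rpl13 scored 0.121 and 0.126 there and 0.15 to 0.187 in the other 10 libraries. Both genotypes carry N40K, but the other 4 carriers lay with the rest.

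In the 12-month table the order of the members was different. The WT mean ran from 0.002 in Rps3a to 0.87 in Rpl13a, a 435-fold span, and the median was 0.0199, against 0.0153 over all genes. Rpl13a, a large-subunit protein whose gene holds 4 snoRNA genes, scored 0.87 ± 0.121 and Rps24, a small-subunit protein, 0.787 ± 0.0451 (SD, n = 4 each). Rpl11, which binds MDM2 when free of the ribosome, scored 0.413 ± 0.0127, Rps16 0.297 ± 0.00876 and Rpl36 0.201 ± 0.00945 (SD, n = 4 each). Between neighbours in this order, Rpl13a and Rps24 overlapped over the WT libraries and the others did not. The lowest were Rps3a (0.002), Rpl35a and Rpl35 (0.00275 each), Rpl39 (0.003) and Rpl19 (0.0035), again within a few steps of the last decimal. The SD over all 10 libraries was 11.3% of the mean in the median member and 21.4% over all genes. The residual SD was smallest in Rps28, Rpl10 and Rps18 and largest in Rps12 (0.474), Rps20 (0.463) and Rpl31 (0.42).

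**Figure D3:**
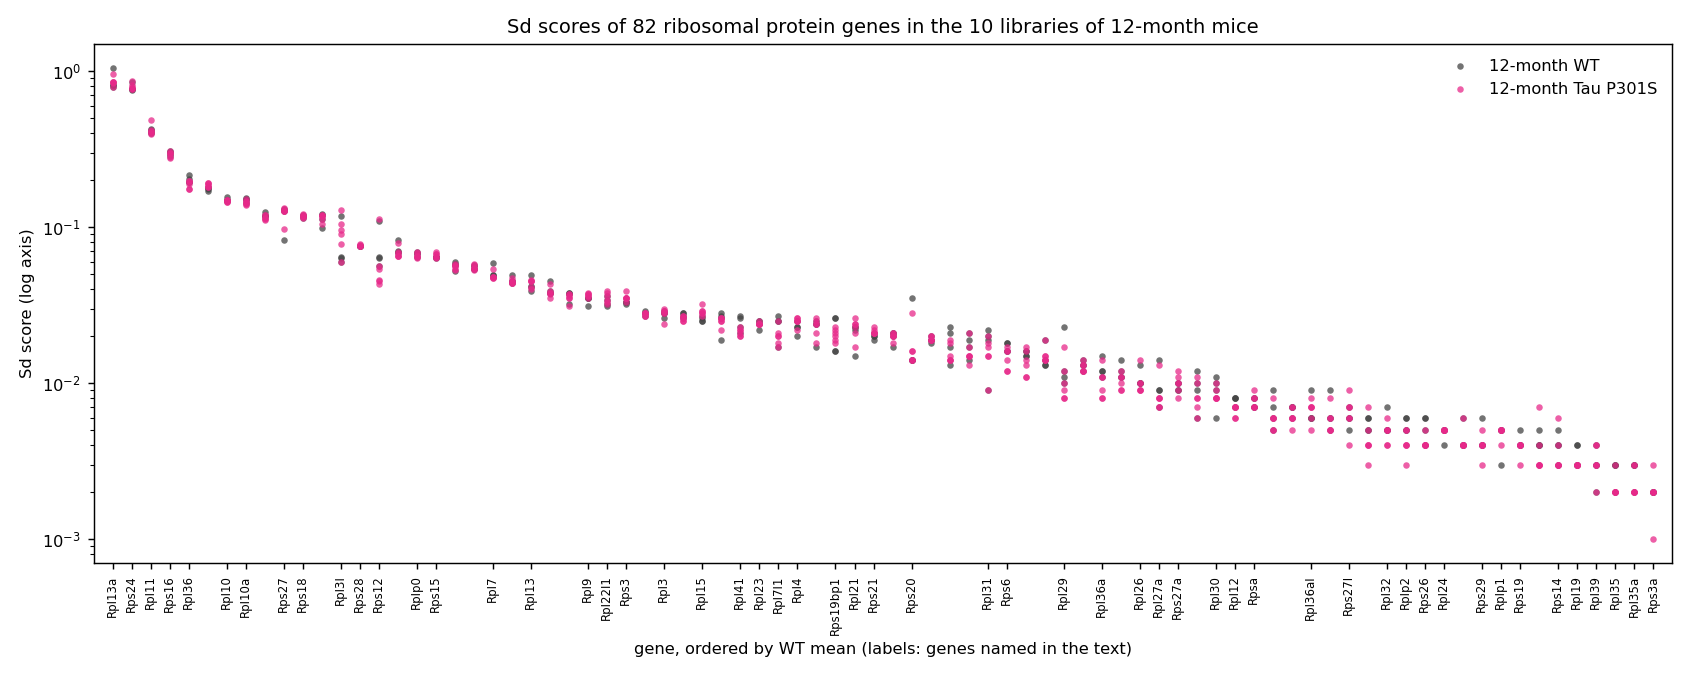
Sd score (log axis) of each of the 82 genes, ordered along the horizontal axis by the WT mean, in the 10 libraries of 12-month mice; each point is 1 library, coloured by group; genes named in the text are labelled. Tau P301S and WT points overlap in every gene, and Rps12, Rps20 and Rpl29 spread more than their neighbours.

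The same genes stood at quite different scores in the WT mice of the 2 tables. Over the 80 members in both, Pearson's r between log2 WT means was 0.27 and Spearman's rho 0.34. Over 12868 other genes they were 0.81 and 0.82, and over 71 mitochondrial ribosomal protein genes 0.79 and 0.80. The points of each correlation share libraries, so no p is given. The median ratio of 12 to 6 months was alike, 0.626 in members and 0.628 in other genes. A distance of at least 5-fold was found in 28 members (35%), 6 higher and 22 lower at 12 months, against 9.26% of other genes.

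Rpl41 stood furthest apart on one side, at 4.787 ± 0.0297 (SD, n = 3) in 6-month WT and 0.0243 ± 0.00275 (SD, n = 4) in 12-month WT, a ratio of 197. Rpl12 stood at 0.763 and 0.00775 (a ratio of 98.5) and Rps21 at 1.03 and 0.02 (51.5). In the other direction Rpl11 scored 0.002 in each 6-month WT library and 0.427, 0.418, 0.407 and 0.398 in the 12-month ones, a ratio of 206. Rps27 (0.00567 and 0.117, a ratio of 20.7) and Rps24 (0.0453 and 0.787, 17.4) lay on the same side. Rplp0, which anchors the stalk, scored 0.063 to 0.069 in the libraries of both tables. Age, cross, table and any difference in the authors' annotation or counting cannot be told apart, and no test was made across the tables.

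**Figure D4:**
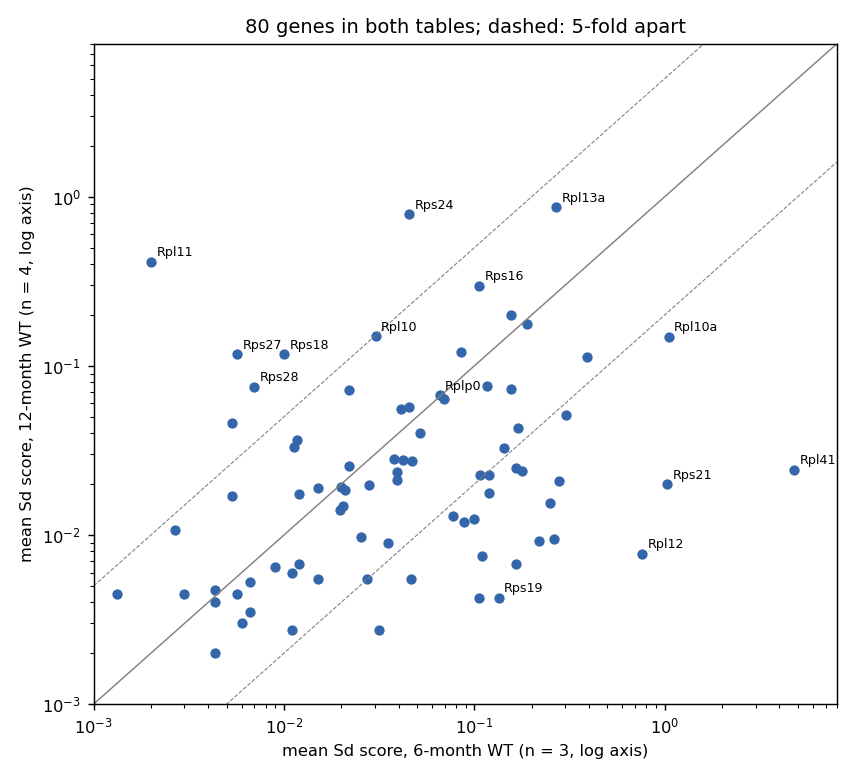
Mean Sd score in 12-month WT (vertical, n = 4) against 6-month WT (horizontal, n = 3) for the 80 genes in both tables, log axes; the solid line marks equal scores and the dashed lines a 5-fold distance. In all 28 genes lie at least 5-fold apart, with Rpl41 and Rpl11 furthest out on either side.

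Before the tau comparison, 2 libraries of the 12-month table have to be set apart. They were picked after the values were seen, so the shares of members below can partly follow from that choice. In WT replicate 2 and Tau P301S replicate 4 the ribosomal protein genes left the range of the other 8 libraries together. Both libraries lay above it in 23 members and both below it in 12, which makes 35 of 82 (42.7%), where 8.60% of all genes did so. Of 74 mitochondrial ribosomal protein genes 11 (14.9%) did, of 20 translation genes 6, and of 27 biogenesis factors 3. In 65 of 82 members (79.3%) both libraries deviated from the rest of their group in the same direction, against 55.4% of all genes, and in 14 they deviated in opposite directions.

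Rps12, a small-subunit protein whose gene holds 3 annotated snoRNA genes, scored 0.11 in WT replicate 2 and 0.112 in Tau P301S replicate 4. The other WT libraries had 0.063, 0.064 and 0.056, and the other Tau P301S libraries 0.046, 0.045, 0.043, 0.056 and 0.054. Rps20 scored 0.035 and 0.028 in the pair and 0.014 to 0.016 in the other 8. Rps20 was therefore near the same value in 8 libraries, and in the pair it stood 2.31-fold and 1.79-fold above its groups (with 0.002 added). Rpl29 scored 0.023 and 0.017 against 0.008 to 0.012, Rpl27a 0.014 and 0.013 against 0.007 to 0.009, and Rpl13a 1.051 and 0.951 against 0.784 to 0.855. Among those below, Rpl31, a protein at the exit of the nascent chain, scored 0.009 in both and 0.015 to 0.022 in the others. Rps27, a zinc-finger protein of the small subunit, scored 0.083 and 0.097 against 0.126 to 0.133, and Rpl21 0.015 and 0.017 against 0.021 to 0.026. The deviation thus ran both ways, gene by gene.

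Of 29 snoRNA hosts 8 lay above and 7 below in both libraries, and of 53 other members 15 and 5. WT replicate 2 also stood apart over all genes: its median difference from the other WT libraries was -0.18 over all genes and 0.02 over the members. It was the lowest of the 10 libraries in 18.7% of all genes and 19.5% of members, and the highest in 6.83% and 24.4%. The median score over all genes was 0.013 in WT replicates 1 and 2, and 0.015 in Tau P301S replicate 4, within the 0.014 to 0.016 of the other Tau P301S libraries. The part of library depth or RNA quality in this was not tested.

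**Figure D5:**
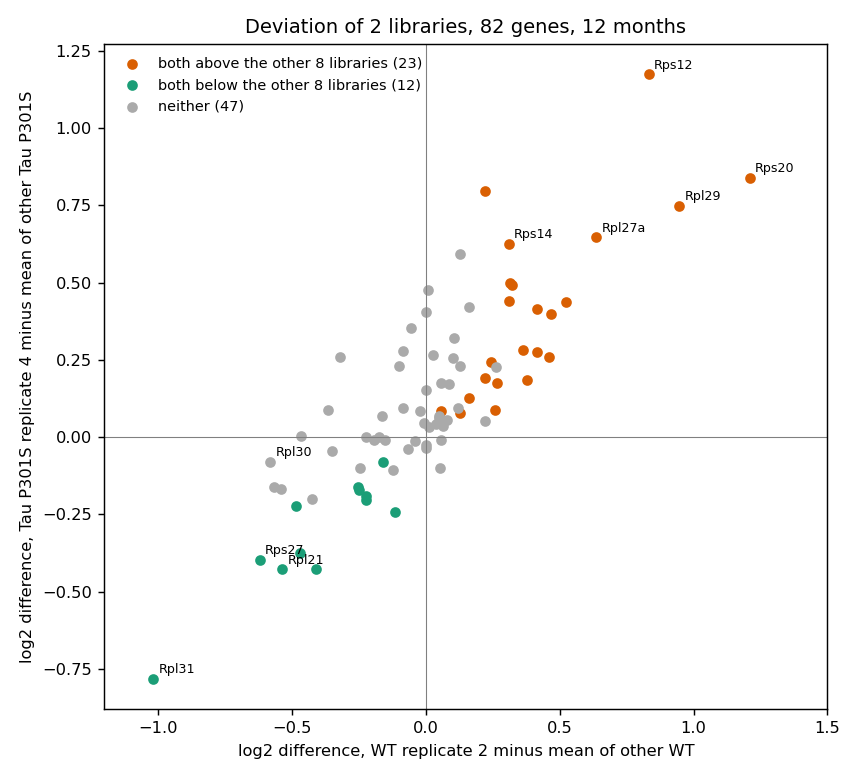
Log2 difference of WT replicate 2 from the mean of the other 3 WT libraries (horizontal) and of Tau P301S replicate 4 from the mean of the other 5 Tau P301S libraries (vertical) for the 82 genes. The 23 orange points are genes in which both libraries exceed the other 8, led by Rps12 and Rps20, and the 12 green ones genes in which both lie below them, led by Rpl31.

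The tau comparison asks whether the scores differed between 12-month Tau P301S and WT mice. No member passed in Tau P301S minus WT (0.00658% of all genes did), and the smallest adjusted p was 0.487. At an unadjusted p under 0.05 there were 5 members (8.28% of all genes). The median member differed by -0.03 and the median gene by -0.02. No member had groups that did not overlap (1.28% of all genes). The 95% interval stayed within a 1.2-fold change either way in 38 members (46.3%), against 16.6% of all genes. The members' intervals were narrower here too, with a median half-width of 0.186 against 0.329 (log2).

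Rpl15, a large-subunit protein, had the smallest p, at 0.026, 0.027, 0.025 and 0.025 in WT and 0.028, 0.028, 0.029, 0.032, 0.029 and 0.027 in Tau P301S. The groups met only at 0.027, in WT replicate 2 and Tau P301S replicate 6, and the difference was 0.15 ± 0.05 (SE, log2; adjusted p = 0.487). Rpl12 scored 0.007, 0.008, 0.008 and 0.008 in WT and 0.006 or 0.007 in Tau P301S (-0.17, adjusted p = 0.495). The stalk protein Rplp2 scored 0.005 or 0.006 in WT and 0.003 to 0.005 in Tau P301S (-0.29, adjusted p = 0.496). Both span 1 to 3 steps of the last decimal.

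Without WT replicate 2 and Tau P301S replicate 4, a choice made after seeing the data, 3 WT and 5 Tau P301S libraries remained and still no member passed (0.00658% of all genes). At an unadjusted p under 0.05 there were then 15 members (10.5% of all genes), and in 3 the groups did not overlap, 2 higher and 1 lower (4.43% of all genes). Rps26, which lies at the exit of the mRNA channel, had the smallest p (-0.31, adjusted p = 0.359), and Rpl15 was separated at 0.14 (adjusted p = 0.365). Rps12 differed by -0.32 (adjusted p = 0.413), with 0.061 ± 0.00436 in WT (SD, n = 3) and 0.0488 ± 0.0058 in Tau P301S (SD, n = 5).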

How the data were processed

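The authors deposited 2 tables of Sd scores, a ratio per gene and library rounded to 3 decimals, 1 for the 12 libraries of 6-month mice and 1 for the 10 of 12-month mice. Per the labels' protocols, poly(A) RNA was DNase-treated and sequenced as stranded paired ends. The submitters' processing notes name CASAVA, STAR, BWA, bedtools 2.16.1 and mm9. The score's formula, annotation and depth are not given in the sources used here. GENCODE M21 and RefSeq promoters are on GRCm38, another build, so no positions are printed.

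Scores were analysed as log2 of score plus 0.002 with limma 3.58.1 in R 4.3.3, fitted jointly to the libraries of each table with a mean for every group. P-values are two-sided and Benjamini-Hochberg adjusted over all genes of a table, with 0.05 as the threshold. "Averaged" means averaged over the other transgene. The fit was tested on simulated data.

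The members and lists were chosen with earlier results of these data known. Named members are those that pass, or else the 3 of smallest p in each comparison; the 5 highest and lowest levels; up to 6 with groups that do not overlap; the 3 widest, the 3 steadiest, and the 3 furthest apart between tables each way. From other lists, genes that pass are named. Some members that this rule names are not reported here by name. Alternatives were median-centring, pseudocounts of 0.001 and 0.01, a mean score of at least 0.02, a trend, linear scores, a replicate block, 2-group fits and left-out libraries.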

Additional observations from a re-analysis of the deposited data

Results flagged for a closer look

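In the 12-month table a single library stood far from its group, by the gap to its nearest neighbour as a share of the group's range (Dixon's 95% critical value), in 31 of 82 members among the 4 WT libraries and in 26 of 82 among the 6 Tau P301S libraries. Chance flags about 1 in 20 groups of values that are not rounded, and the share for these rounded scores was not tested. WT replicate 2 was that library in 25 members and Tau P301S replicate 4 in 20. The 6-month groups hold 3 libraries each and were not examined in this way.

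Among the named members, WT replicate 2 was far above its group in Rpl13a (1.051), Rps24 (0.854), Rps12 (0.11), Rpl7 (0.059), Rps20 (0.035), Rpl29 (0.023), Rpl26 (0.013), Rpl32 (0.007), Rps29 (0.006) and Rps19 (0.005). It was far below its group in Rps27 (0.083), Rpl21 (0.015), Rplp1 (0.003) and Rpl35a (0.002). WT replicate 1 stood apart in Rps28 (0.076), Rpl12 (0.007) and Rpl35 (0.002), each by 1 step of the last decimal, and WT replicate 3 in the muscle paralog Rpl3l (0.117).

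Tau P301S replicate 4 was far above its group in Rpl11 (0.488), Rps12 (0.112), Rpl7 (0.054), Rps20 (0.028), Rpl26 (0.014), Rpl27a (0.013), Rps14 (0.006) and Rpl35 (0.003), and below it in Rps27 (0.097), Rpl4 (0.022) and Rplp1 (0.004). Tau P301S replicate 1 stood apart in Rpl23 (0.025) and Rps26 (0.005), and Tau P301S replicate 6 in Rps19 (0.003). The scores have 3 decimals, so a single step can meet this criterion at any level where the other libraries of a group share a value. This was so in Rps28 (0.076 against 0.075) and Rpl23 (0.025 against 0.024).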

How the results depend on the processing

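The count of members that passed was 0 in all 9 comparisons and also in 148 of 153 alternative fits. With every library first centred on its median, 2 members passed for N40K averaged, Rps6 (-0.27, adjusted p = 0.0351) and Rpl15 (-0.26, adjusted p = 0.0446). That setting also moved the members' median to -0.16 for N40K minus WT, -0.17 for dTg minus WT, -0.12 for dTg minus 5xFAD and -0.15 for N40K averaged. Leaving out 1 library gave from 0 to 1 member for N40K averaged and for dTg minus WT. The member was Rpl31 without N40K replicate 2 (-0.17, adjusted p = 0.048), Rps27l without N40K replicate 3 and Rpl29 without dTg replicate 3. The members named for their p in a comparison kept their direction there in all 439 alternative values and their side of the threshold in 436. The other 3 are those of Rps6 and, in both comparisons, Rpl29; Rpl15, Rpl31 and Rps27l were not among those of smallest p for N40K averaged. Why these passed was not tested. Over all genes the number that passed ranged from 749 to 2352 for N40K averaged (main 1838), from 10 to 289 for dTg minus WT (247), from 0 to 254 for N40K minus WT (28) and from 0 to 170 for dTg minus 5xFAD (49). It ranged from 0 to 34 for dTg minus N40K (3), from 0 to 38 for 5xFAD averaged (7), from 0 to 27 for 5xFAD minus WT (3), from 0 to 22 for the interaction (3) and from 0 to 5 for Tau P301S minus WT (1). Without the 5 paralogs and Rps19bp1 the 6-month WT median was 0.0438.

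With the replicate number as a block 0 members passed in every comparison, and 889 genes passed for N40K averaged, 31 for dTg minus WT, 17 for N40K minus WT, 15 for dTg minus 5xFAD and 0 for Tau P301S minus WT. For same-numbered libraries of different groups, r between deviations from the group means ran from -0.2 to 0.071 over 18 pairs at 6 months. At 12 months it ran from -0.265 to 0.191 over 4 pairs. With so few libraries per group these values cannot decide whether the numbers pair the samples, and the labels do not say.

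Of the limits, rounding bears most on low scores: 26 of 81 members at 6 months and 41 of 82 at 12 months had a WT mean under 0.02, where 1 step of 0.001 is over 5% of the value. The read depth is unknown. Reads shared with pseudogenes, and the annotation behind each table, could not be examined.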
